A study of Mus musculus with 8 samples.

Results

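The genes described here encode the proteins of the cytosolic ribosome, measured in natural killer (NK) cells of the mouse spleen with and without a reporter for choline acetyltransferase (Chat), the enzyme that makes acetylcholine. Members were chosen by name: every gene whose symbol begins with Rpl or Rps followed by a number, with the P stalk genes Rplp0, Rplp1 and Rplp2 and with Rpsa, leaving out pseudogenes and the Rps6 kinases. The array carried 84 such genes, 49 of the large subunit, 32 of the small subunit and 3 of the stalk, among 20284 named genes. Of these, 83 were tested among 13607 genes, and all 83 gave signal well above background on all 8 arrays. The exception was Rpl3l, a copy of Rpl3 known from skeletal and heart muscle, whose single probe was not well above background on any array. RefSeq holds 90 symbols that fit the rule, and 6 of them (Rps23, Rpl6l, Rpl32l, Rps12l1, Rps3a2 and Rps3a3) had no named probe and were not analysed here.

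NK cells were enriched from spleen with magnetic beads and then sorted by eGFP from the ChAT-eGFP reporter, so both groups came from reporter mice and differed in eGFP. ChAT_positive (labelled ChAT+, 4 samples) and ChAT_negative (labelled ChAT-, 4 samples) are each pools of cells from 2 to 4 mice. The strain, age and sex of the mice and the construction of the reporter are not given in the sources used here, and nothing says whether the pools of a group came from separate mice, so the spread behind the p-values below is that between these 8 pools and may be technical. RNA was read on 8 one-colour arrays, with 50.2% to 63.2% of spots other than controls well above background on each and 0 saturated. All ChAT_positive arrays lay on 1 slide and all ChAT_negative arrays on another, and each slide had its own scan, so in every value below the slide and the group cannot be told apart.

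A ribosome is built from ribosomal RNA and a single copy of most of its proteins: the small subunit reads the messenger RNA, the large subunit joins amino acids, and the P stalk recruits elongation factors. Transcripts of ribosomal protein genes are among the most abundant in lymphocytes, and most begin with a terminal oligopyrimidine (TOP) tract, a C followed by a run of C and T, through which the kinase mTORC1 and the protein Larp1 govern their translation. When lymphocytes are activated and grow, they make more ribosomes, largely by raising ribosomal RNA synthesis, ribosome assembly and the translation of TOP transcripts. An array measures the amount of transcript only, not translation. In pooled cells, fewer cells of a type and less RNA per cell cannot be told apart.

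The start of these genes is shown first because the tract is a sequence trait known from this family and is independent of the array values. Each line below runs from 40 bases before to 20 bases after the RefSeq transcript start (assembly GRCm38.p6), and capitals mark each tract of a C followed by at least 6 C or T that lies within 15 bases of the start on the strand of the gene. Rps18, Rpl18 and Rpl31 are among the members with the lowest differences below, Rps10 is among the highest, Rps6 is the S6 kinase substrate, Rpl15 and Rplp2 show typical tracts, Rpl39l is the member with the highest difference, and Rps4x and Rpl10l have no such tract in this window.
Rps18, chr17:33955646-33955705, minus strand: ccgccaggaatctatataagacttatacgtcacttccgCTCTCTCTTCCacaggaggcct
Rpl18, chr7:45718031-45718090, plus strand: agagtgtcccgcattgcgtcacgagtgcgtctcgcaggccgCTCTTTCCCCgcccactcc
Rpl31, chr1:39367811-39367870, plus strand: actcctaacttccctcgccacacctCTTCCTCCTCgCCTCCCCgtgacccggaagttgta
Rps10, chr17:27635225-27635284, minus strand: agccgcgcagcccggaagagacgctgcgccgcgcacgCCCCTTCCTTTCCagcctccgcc
Rps6, chr4:86857348-86857407, minus strand: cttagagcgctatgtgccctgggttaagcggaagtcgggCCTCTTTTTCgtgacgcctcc
Rpl15, chr14:18270967-18271026, minus strand: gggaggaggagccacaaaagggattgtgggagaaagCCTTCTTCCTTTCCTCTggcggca
Rplp2, chr7:141447611-141447670, plus strand: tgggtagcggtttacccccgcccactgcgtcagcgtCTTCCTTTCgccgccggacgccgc
Rpl39l, chr16:10170188-10170247, plus strand: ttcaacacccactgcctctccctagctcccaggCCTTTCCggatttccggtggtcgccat
Rps4x, chrX:102189372-102189431, minus strand: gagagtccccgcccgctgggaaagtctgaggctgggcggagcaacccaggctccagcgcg
Rpl10l, chr12:66284382-66284441, minus strand: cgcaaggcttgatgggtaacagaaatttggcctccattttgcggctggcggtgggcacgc
Promoters of 63 members were in the table, and 32 of them (50.8%) held a tract at the start by this rule, against 16.4% of 27025 genes. A gene counted if any of its listed starts had the tract. The rule reads only 15 bases to either side of a RefSeq start, so a member counted as without a tract may hold one elsewhere. The motif CCGGAAG, the core that factors of the ETS family recognise, lay on either strand of the 300-base promoter in 41.3% of the members and in 9.93% of all genes. Over tested genes only, the motif was found in 41.9% of members and 18.5% of 10901 genes, and the tract in 51.6% and 17.8%. The 32 members with a tract had a median log2 difference between the groups of -0.08 (from -0.41 to 0.64), and the 30 tested members without one had a median of -0.09 (from -0.57 to 0.20). These differences, and all signal values below, are on the log2 scale after each array's 75th percentile was subtracted, so a value of 5 is a spot brighter than that percentile by 5 doublings, and a difference is ChAT_positive minus ChAT_negative.

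Chat itself, the reporter gene, was at 3.75 ± 0.25 (SD, n = 4) in ChAT_positive cells and 2.65 ± 0.34 (SD, n = 4) in ChAT_negative cells. Its difference of 1.10 (SE 0.20) passed the test (limma, Benjamini-Hochberg adjusted p = 0.0201). Leaving out the third ChAT_positive array raised the adjusted p to 0.0623, and leaving out ChAT_negative replicate 4 raised it to 0.0646, past the threshold in both cases. Ncr1 and Eomes, which define NK cells, were well above background on all 8 arrays.

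None of the ribosomal protein genes passed the test between the groups. Of the 83 members tested, 0 were higher and 0 were lower in ChAT_positive cells (limma across 13607 genes, adjusted p under 0.05), where 2.81% of all genes were higher and 3.15% were lower, together 5.96%. At an unadjusted p under 0.05 there was 1 member, Rps18, against 24.8% of all genes. For 0 of the 83 members did the 4 arrays of one group lie entirely above or below the 4 of the other, which was the case for 15.5% of all genes. Few calls were also found among the 404 other genes with a mean signal over 4.5, the genes most like the members in brightness: 1 was higher and 2 were lower, 5 and 21 were so at an unadjusted p under 0.05, and 2.48% had groups that did not overlap. The shares over all genes rest on 383 higher and 428 lower genes, and these counts depended on single arrays: leaving out ChAT_positive arrays 1, 3 or 4 in turn gave 155 and 196, 100 and 122, or 197 and 284, and leaving out ChAT_negative arrays 2, 3 or 4 gave 181 and 248, 148 and 218, or 94 and 116. The split between higher and lower genes also moved with the scaling, to 211 and 119 when each array's median was subtracted and to 30 and 120 with no scaling, while the number of members called stayed at 0 under each of these settings.

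The intervals below hold only the spread between arrays under this scaling. Neither the slide nor the choice of scaling enters them, so they do not bound a difference that the arrays could have missed. For 81 of the 83 members (97.6%) the 95% interval of the difference lay within 2-fold in either direction, and for 69 (83.1%) it lay within 1.5-fold, where 77.5% and 43.4% of all genes did so. Among the 404 other bright genes these shares were 99.5% and 74.0%, so narrow intervals were not particular to the family. The exceptions at 2-fold were Rpl39l and Rpl10l, both paralogs with weak signal. Every difference of the 76 members that are not paralogs lay between -0.41 and 0.20. The median over the 83 members was -0.08 and over all genes tested 0.03, with 62 members below 0 and 21 above. The sign of the members' median depended on the scaling. With each array's median subtracted it was 0.13, where the median of all genes was 0.24. After quantile normalization it was 0.04, where all genes stood at 0.06, and with no scaling it was -0.22, where they stood at -0.11. Relative to all genes, the members lay at -0.11 on the log2 scale. Subtracting another single value from each array cannot change this offset, since it shifts all genes alike. It was -0.07 after cyclic loess and -0.02 after quantile normalization. With the 75th percentile subtracted, this offset was -0.22 when ChAT_negative replicate 3 was left out and -0.05 when ChAT_negative replicate 1 was. The 404 other bright genes had a median of -0.12, with 319 below 0, so the members' offset was like that of bright genes outside the family. The members' median also moved with single arrays, to -0.21 when ChAT_negative replicate 3 was left out, -0.17 for ChAT_positive replicate 2, -0.01 for ChAT_negative replicate 1 and 0.0009 for ChAT_positive replicate 4.

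**Figure D1:**
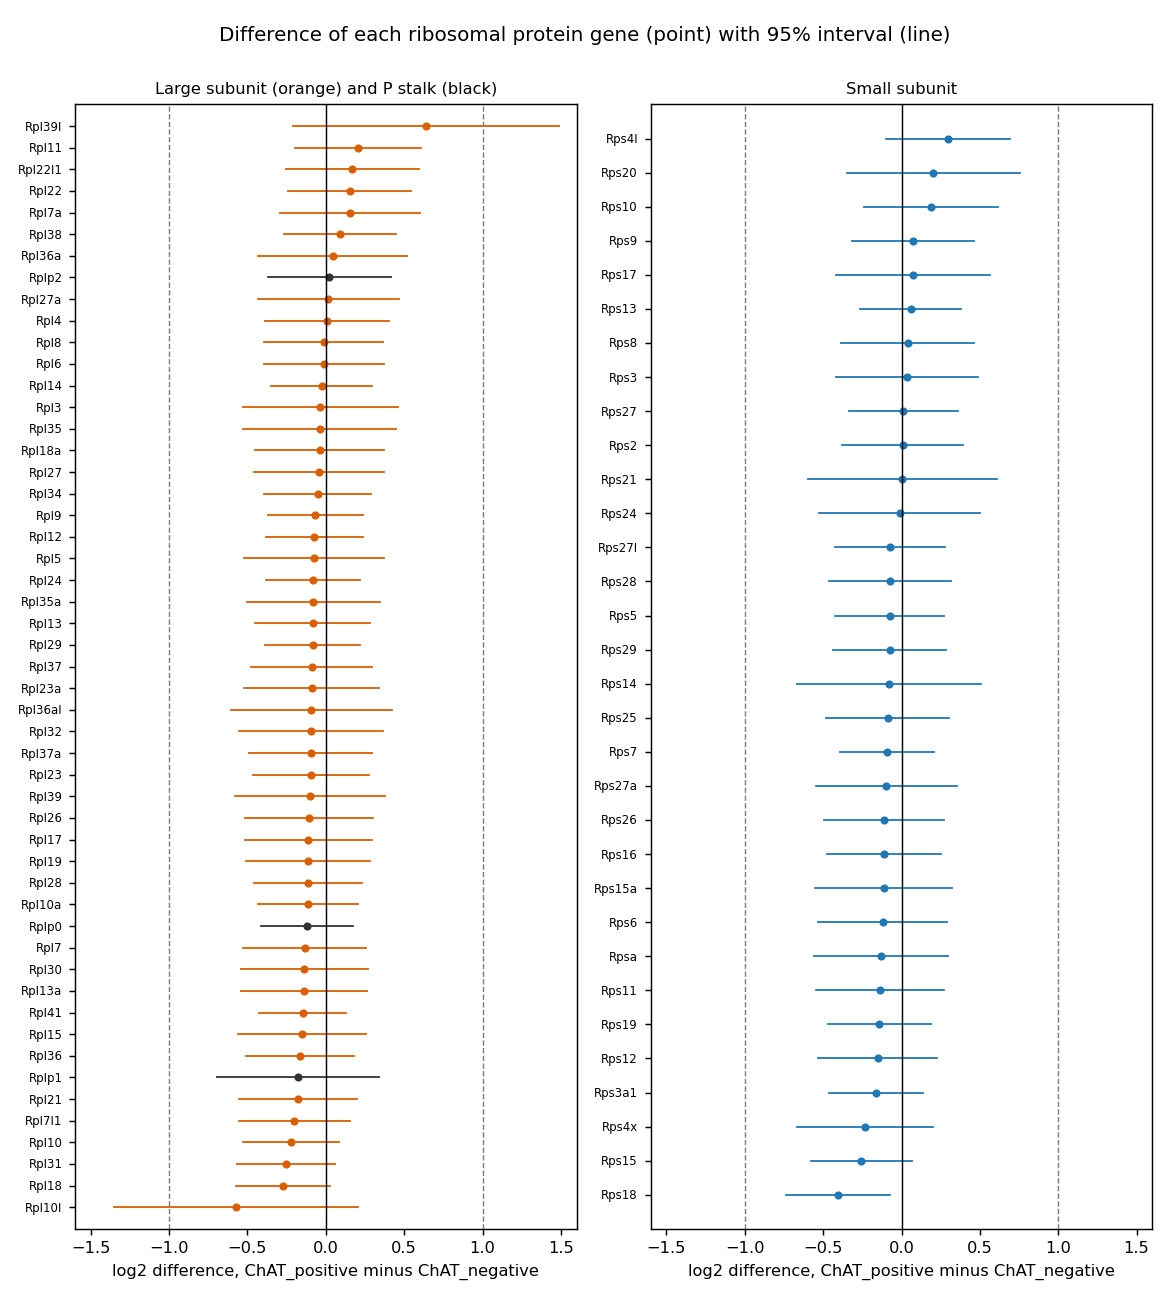
Log2 difference (ChAT_positive minus ChAT_negative, horizontal axis) of the 83 ribosomal protein genes tested, with points for the estimates and lines for the 95% intervals, large subunit in orange, P stalk in black and small subunit in blue. Dashed lines mark 2-fold; 81 of the 83 intervals lie inside them, and the Rps18 interval, from -0.74 to -0.08, is the only one that does not reach 0.

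Both subunits gave the same picture. The 43 large subunit genes without paralogs had a median difference of -0.08, from -0.27 for Rpl18 to 0.20 for Rpl11, with 7 above 0 and 36 below. Small subunit genes, 30 without paralogs, had a median of -0.08, from -0.41 for Rps18 to 0.20 for Rps20, with 10 above 0 and 20 below. Within each array, the median of the large subunit genes exceeded that of the small subunit genes by 0.07 to 0.14; since probes differ in brightness, only the change of this gap between arrays can be read. The ChAT_positive arrays had a gap of 0.11 ± 0.02 and the ChAT_negative arrays one of 0.10 ± 0.03 (SD, n = 4 each), so the balance of the subunits' transcripts differed between the groups by 0.004, less than the spread between arrays.

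Rps18, a protein of the small subunit's head, had the lowest p of the family. Its signal was 4.62, 4.74, 4.81 and 4.67 in ChAT_positive replicates 1 to 4, and 5.45, 5.16, 4.81 and 5.06 in ChAT_negative replicates 1 to 4. The 4 ChAT_positive values lay close together, and ChAT_negative replicate 3 sat at the top of their range, which is the overlap between the groups. The difference was -0.41 (SE 0.15, 95% interval -0.74 to -0.08, unadjusted p = 0.0215) and did not pass after adjustment (adjusted p = 0.131, from 0.0694 to 0.569 over the alternatives). A second Rps18 probe gave -0.10 (SE 0.23), and the mean of both probes gave -0.25. Subtracting each array's median in place of its 75th percentile gave -0.19.

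Among large subunit genes Rpl18 was lowest, with 5.25, 5.70, 5.40 and 5.31 in ChAT_positive replicates 1 to 4 against 5.74, 5.70, 5.53 and 5.79 in ChAT_negative cells. Only ChAT_positive replicate 2 reached the ChAT_negative range, and the difference was -0.27 (adjusted p = 0.242). Rps15, at the decoding side of the small subunit, and Rpl31, beside the exit of the peptide tunnel, followed with differences of -0.26 and -0.25 (adjusted p = 0.30 each, limma). Rps15 ranged from 5.47 to 5.85 in ChAT_positive and from 5.63 to 5.94 in ChAT_negative replicates 2 to 4, with replicate 1 at 6.12. One further Rpl31 probe gave a difference of -0.59 (SE 0.31), the lowest of any member probe, and did not pass either (adjusted p = 0.307 over probes). It rested on ChAT_positive replicate 1, at 3.62 against 4.77 to 5.09 in the other ChAT_positive arrays, and was -0.26 without that array.

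At the other end stood Rpl11, which with Rpl5 carries the 5S RNA and binds the p53 inhibitor Mdm2 when assembly fails. Its signal was 5.55, 5.82, 5.51 and 5.26 in ChAT_positive and 5.53, 5.42, 4.90 and 5.46 in ChAT_negative replicates 1 to 4, a difference of 0.20 (SE 0.18, adjusted p = 0.519). The groups overlapped, and ChAT_negative replicate 3 was the low value: without it the difference was 0.06. Rpl5 differed by -0.08 (SE 0.20). Rps20 and Rps10, neighbours on the small subunit that are ubiquitinated when ribosomes collide, differed by 0.20 (95% interval -0.35 to 0.76) and 0.19 (95% interval -0.24 to 0.62), again with ChAT_negative replicate 3 lowest for both, at 4.34 and 4.92.

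The P stalk proteins bring the GTPase factors of elongation to the ribosome, and their base is formed by Rplp0 with Rpl12. Rplp0 was at 5.73, 5.86, 5.87 and 5.70 in ChAT_positive and 6.03, 5.92, 5.63 and 6.06 in ChAT_negative replicates 1 to 4. The ChAT_positive values fell inside the ChAT_negative range, and the difference was -0.12 (SE 0.13). Rplp1 differed by -0.18 (SE 0.23) and Rplp2 by 0.02 (SE 0.17), none passing the test (adjusted p from 0.606 to 0.953 over the 3 stalk genes). Rpl12 was at 6.04 ± 0.20 and 6.12 ± 0.13 (SD, n = 4 each), a difference of -0.07.

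Rps6, the small subunit protein phosphorylated by S6 kinases under mTORC1, was at 5.16, 5.65, 5.36 and 5.11 in ChAT_positive and 5.65, 5.61, 5.01 and 5.49 in ChAT_negative replicates 1 to 4. Its groups overlapped across almost their whole range, and the difference was -0.12 (95% interval -0.53 to 0.29, adjusted p = 0.723). The other genes with the strongest spots behaved alike: Rpl41, which encodes the shortest ribosomal protein, differed by -0.15, Rpl14 by -0.03 and Rps16 by -0.11, with SE between 0.12 and 0.16.

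A few members known for roles beside protein synthesis were picked after the values were seen. Rpl13a, which silences inflammatory transcripts in myeloid cells after interferon gamma, differed by -0.14 (95% interval -0.54 to 0.27). Rps3, also a DNA repair protein and a partner of NF-kappaB, was at 4.91, 5.17, 4.89 and 4.59 in ChAT_positive and 5.17, 5.00, 4.34 and 4.92 in ChAT_negative replicates 1 to 4, a difference of 0.03. Rpsa, also known as a laminin receptor, differed by -0.13 (SE 0.19), and Rps27a, which is made as a fusion with ubiquitin, by -0.10 (SE 0.20). Rps19, the gene most often mutated in Diamond-Blackfan anaemia, differed by -0.14 (95% interval -0.47 to 0.19). Rpl38, needed for the translation of some Hox transcripts, was the only one of these besides Rps3 above 0, at 0.09 (95% interval -0.27 to 0.45). None of the 6 passed the test, and the groups overlapped for each.

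**Figure D2:**
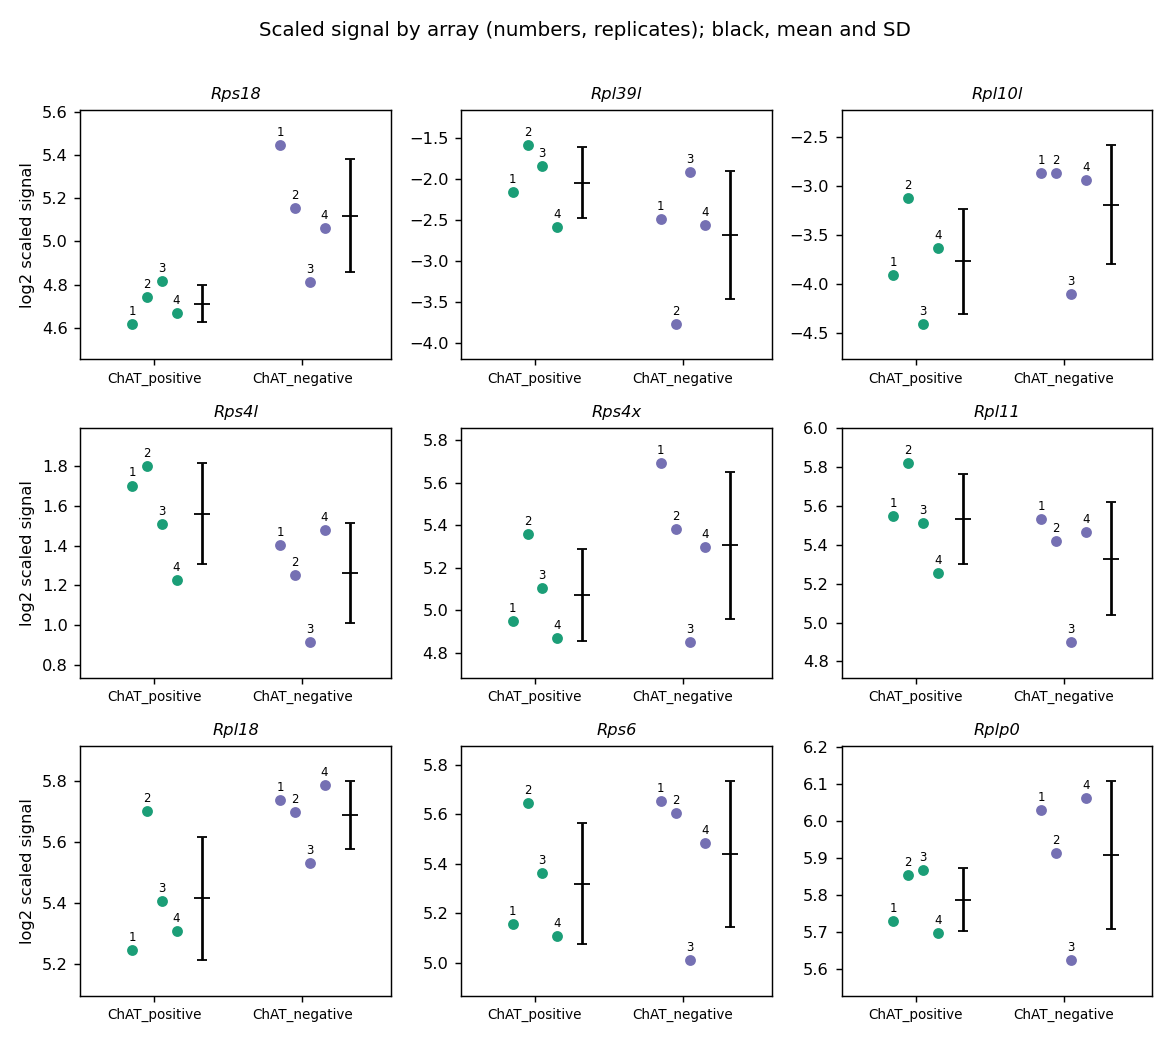
Log2 scaled signal (vertical axis, a scale of its own in each panel) of 9 ribosomal protein genes on each array, ChAT_positive in green and ChAT_negative in purple, with replicate numbers above the points and the mean ± SD in black. ChAT_negative replicate 3 is the lowest of its group in 8 of the 9 panels, Rpl39l being the exception, and in each panel the groups overlap.

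Paralogs are copies of a ribosomal protein gene that can take the place of the usual protein in some tissues. Their log2 differences spread more widely than those of the other members, from -0.57 to 0.64 over 7 tested, and 0 of the 7 passed. Both ends were set by the dimmest members, Rpl10l and Rpl39l, with mean signals of -3.48 and -2.37. The other paralogs lay between -0.20 and 0.30. Rpl39l, the copy of the exit tunnel protein Rpl39 known from testis, gave -2.17, -1.59, -1.84 and -2.59 in ChAT_positive and -2.49, -3.77, -1.92 and -2.57 in ChAT_negative replicates 1 to 4. The difference of 0.64 (95% interval -0.21 to 1.49, adjusted p = 0.328) rested on ChAT_negative replicate 2, the lowest of the 8, and was 0.28 without it. Rpl10l, the autosomal retrogene of X-linked Rpl10 that acts in male meiosis, gave -3.91, -3.12, -4.40 and -3.63 in ChAT_positive and -2.87, -2.86, -4.10 and -2.94 in ChAT_negative replicates 1 to 4. Here 3 ChAT_negative arrays lay above every ChAT_positive array, ChAT_negative replicate 3 lay near the bottom, and the difference was -0.57 (95% interval -1.35 to 0.20, adjusted p = 0.335).

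Rps4l, a copy of X-linked Rps4x, was at 1.70, 1.80, 1.51 and 1.23 in ChAT_positive and 1.41, 1.25, 0.92 and 1.48 in ChAT_negative replicates 1 to 4, a difference of 0.30 (SE 0.17, adjusted p = 0.326). Rps4x ran the other way, with 4.95, 5.36, 5.10 and 4.87 against 5.69, 5.38, 4.85 and 5.30, a difference of -0.23 (SE 0.19). Set against Rps4x on the same array, Rps4l was therefore higher in ChAT_positive cells on every array (a shift of 0.53, without overlap between the groups), although neither gene passed alone. For the other 6 pairs of copy and partner the groups overlapped. Their shifts were 0.01 for Rpl22l1 against Rpl22, a pair known from T cell development, -0.08 for Rps27l, a p53 target, against Rps27, -0.14 for Rpl36al against Rpl36a, -0.07 for Rpl7l1 against Rpl7, 0.74 for Rpl39l against Rpl39 and -0.35 for Rpl10l against Rpl10. The shift is a difference of differences; no test was run on it, and how often pairs of other genes fail to overlap was not measured. Ribosomal protein genes have many processed pseudogenes and near-identical copies in the mouse genome, and since probe sequences were not used here, the assignment of signal between copies is uncertain.

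The members rose and fell together from array to array far more than they differed between the groups. Their median signal was 5.30, 5.61, 5.40 and 5.11 in ChAT_positive replicates 1 to 4 and 5.66, 5.50, 5.03 and 5.45 in ChAT_negative replicates 1 to 4, a range of 0.63 over the 8 arrays. Group means of this median were 5.36 ± 0.21 and 5.41 ± 0.27 (SD, n = 4 each), a difference of -0.05. Within ChAT_negative, replicate 3 was the lowest array for 81 of the 83 members and replicate 1 the highest for 65. Within ChAT_positive, replicate 4 was the lowest for 77 and replicate 2 the highest for 75. On the scaled values, each group thus held 1 array that was low and 1 that was high for most of the family.

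The low arrays were those with the highest scaling value. Before scaling, the members' median ranged over 0.46, from 16.25 in ChAT_positive replicate 3 to 16.71 in ChAT_negative replicate 1. Unscaled, it was 16.64 in ChAT_negative replicate 3 and 16.47 in ChAT_positive replicate 4, and neither was the lowest of its group. The 75th percentile that was subtracted ranged over 0.83, from 10.78 in ChAT_positive replicate 2 to 11.61 in ChAT_negative replicate 3. After cyclic loess normalization, which aligns arrays at every brightness, the members' median ranged over 0.20. The 404 other genes with a mean signal over 4.5 had medians of 4.73 to 5.19 on the same arrays, highest in ChAT_negative replicate 1 and lowest in ChAT_positive replicate 4, so the swings were shared by bright genes outside the family. The part of the 75th percentile and of brightness in the swings was not tested.

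**Figure D3:**
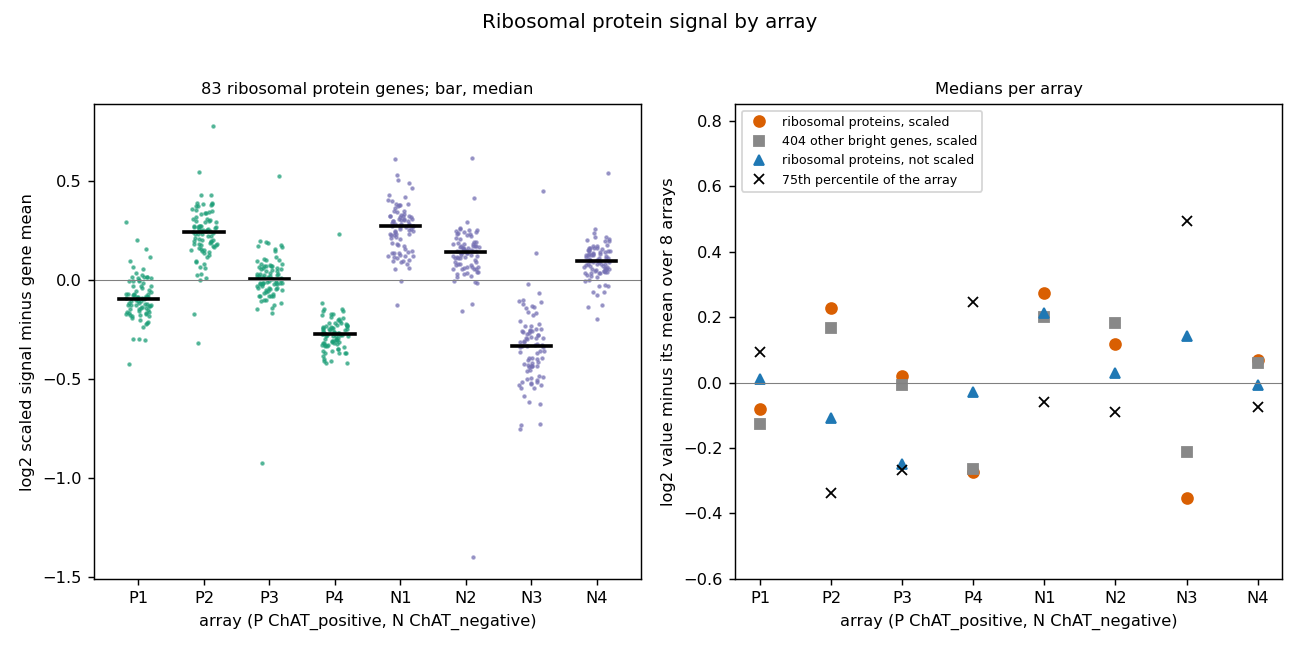
Left, log2 scaled signal of each of the 83 ribosomal protein genes minus its own mean over the 8 arrays, with 1 point per gene and a black bar at the median of each array; right, the medians of the members and of 404 other bright genes and the 75th percentile of the array, each minus its own mean over arrays. The scaled medians of both gene sets are low in P4 and N3 (ChAT_positive replicate 4 and ChAT_negative replicate 3), where the 75th percentile is highest.

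Subtracting the members' own median on each array took this common swing away and left the balance among the members. The median SD within a group fell from 0.25 to 0.09 over the members, while it rose from 0.24 to 0.32 over all genes. Over the 404 other bright genes it fell too, from 0.22 to 0.13. On this relative scale 10 of 83 members (12.0%) had groups that did not overlap, against 8.79% of all genes treated in the same way. These shares are not like for like, since the scale is set by the members and narrows their spread but not that of all genes. The share among the other bright genes was not measured, so the genes named next are a description only. Of the 10, Rpl11, Rpl22, Rps10, Rps20 and Rps4l were higher in ChAT_positive cells relative to the family, by 0.21 to 0.35, and Rpl13a, Rpl31, Rps15, Rps18 and Rps4x were lower, with differences from -0.35 to -0.08. Rps18 stood from -0.87 to -0.44 below the family median in ChAT_positive cells and from -0.39 to -0.21 in ChAT_negative cells. Rpl22, whose loss impairs alpha beta T cell development, stood from -0.50 to -0.43 in ChAT_positive and from -0.74 to -0.59 in ChAT_negative cells. When all genes were scaled in this way and tested with limma, 0 members passed, and the lowest adjusted p was 0.259, for Rps4l.

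Most members had several probes on the array, 173 in all for the 84 genes: 32 genes had 1 and 52 had more, up to 7. Of 170 member probes that passed the background filter, 0 passed the test and 3 had an unadjusted p under 0.05. These were the Rps18 probe above, a weak Rpl22 probe at 0.58 (SE 0.17, adjusted p = 0.0963 over probes) and a weak Rpl23 probe at 0.45 (SE 0.15, adjusted p = 0.136 over probes). The Rpl22 probe read 1.05, 0.74, 1.04 and 0.64 in ChAT_positive and 0.54, -0.06, 0.36 and 0.30 in ChAT_negative replicates 1 to 4, without overlap, while the stronger Rpl22 probe gave 0.15 (SE 0.18). For Rpl23 the stronger probes gave -0.10 and 0.02.

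Probes of one gene disagreed in a regular way. Of 27 member probes with mean signal below 4, 22 had a difference above 0 (median 0.18), and of 143 at or above 4, 31 did (21.7%, median -0.08). Other genes' probes did so in 49.8% of cases below 4 and in 25.3% at or above 4. The count for bright member probes depended on the scaling. It was 48 of 143 after cyclic loess and 105 of 143 after quantile normalization, while the dim ones stayed at 22 of 27. Other genes' bright probes moved likewise, from 542 of 2139 to 692 and 1138. Within a gene, the dimmest probe gave a higher difference than the brightest for 35 of 50 members, and for 22 of the 26 whose probes lay over 1 doubling apart (median gap 0.26). The same count in other genes was 50.9%, but those genes were not matched to the members in brightness. How often it occurs in other genes with 1 bright and 1 dim probe was not measured. After cyclic loess it was 19 of 26 and after quantile normalization 18 of 26, against 56.6% and 60.6% of other genes. The dim probes included second probes of Rpl14, Rpl15, Rpl27a, Rpl31 and Rps15a, with differences of 0.24 to 0.33, and the choice of the brightest probe left them out of the values above.

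**Figure D4:**
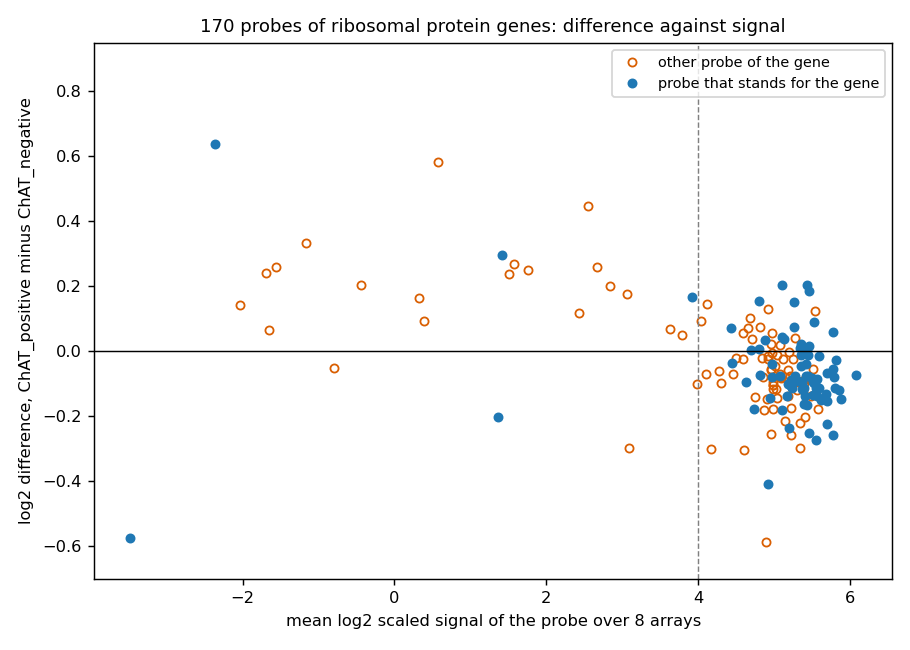
Log2 difference (ChAT_positive minus ChAT_negative, vertical axis) against the mean log2 scaled signal (horizontal axis) of 170 probes of ribosomal protein genes, filled where the probe stands for its gene and open otherwise; the dashed line marks a signal of 4. Of the 27 probes left of the line 22 lie above 0, and of the 143 at or right of it 31 do.

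Genes that work beside the ribosomal proteins were read from lists named for their function. Fau, which encodes a small subunit protein fused to a ubiquitin-like domain, differed by 0.06 (SE 0.18) and did not pass. Of 36 translation initiation factors 0 passed (median 0.07, with 3 at an unadjusted p under 0.05: Eif2a, Eif4a2 and Eif5b, all above 0). Over all genes, 12.9% were higher at that unadjusted p. Elongation and release factors gave 0 of 10 (median 0.06), with Eef1a1, the carrier of aminoacyl-tRNA, at -0.21 (SE 0.18). Of 19 further genes with TOP transcripts 0 passed (median -0.04), Tpt1 among them at -0.16. The 77 mitochondrial ribosomal proteins gave 0 as well (median 0.06, from -0.67 to 0.43).

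Of 81 ribosome biogenesis factors 2 were higher and 0 lower in ChAT_positive cells (against 2.81% of all genes higher), 13 were higher at an unadjusted p under 0.05 (12.9% of all genes were), and the median difference was 0.16 against 0.03 over all genes. Both called genes belong to the complex that processes small subunit precursor RNA: Utp15 rose by 0.56 (SE 0.10, adjusted p = 0.0196) and Utp14a by 0.74 (SE 0.18, adjusted p = 0.0451). Utp15 missed the threshold when ChAT_positive array 1 or 3 or ChAT_negative array 4 was left out (adjusted p up to 0.0646), Utp14a did so for every array left out other than ChAT_negative replicate 1 (up to 0.126), and neither passed with each array's median subtracted, with no scaling or with no filter on dim probes. The others at an unadjusted p under 0.05 included nucleolin (Ncl) at 0.40 (adjusted p = 0.177) and the helicase Ddx21 at 0.33 (adjusted p = 0.158).

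RNA polymerase I genes, which make ribosomal RNA, gave 0 calls of 15 (median 0.14), with the factor Ubtf at -0.18 (SE 0.13). For mTORC1 and its targets in translation it was 0 of 33 (median 0.07). At an unadjusted p under 0.05 (limma) 4 of the 33 were higher and 1 was lower, where 24.8% of all genes reached it in either direction. Within that list Tsc1 and Tsc2, which restrain mTORC1, differed by 0.44 (limma adjusted p = 0.0802) and 0.40 (adjusted p = 0.163). Eef2k, the kinase that inhibits elongation factor 2, had the largest difference of the list, at -0.70 (adjusted p = 0.0957). The others at an unadjusted p under 0.05 were Rraga at 0.34 (adjusted p = 0.13) and Eif4ebp2 at 0.39 (adjusted p = 0.162). The list's brightest genes, Pdcd4 and Eif4ebp1, both inhibitors of translation initiation, differed by -0.27 (SE 0.15) and 0.085 (SE 0.17). The ribosome stress response list had 1 of 15 higher: Eif2ak4, the kinase that senses uncharged tRNA on stalled ribosomes, rose from -1.49 ± 0.15 to -0.65 ± 0.19 (SD, n = 4 each), by 0.84 (SE 0.14, adjusted p = 0.0143). It passed without any single array, with the highest adjusted p at 0.045, but not with no scaling (adjusted p = 0.196), with scaling to the members' median (0.0966) or without both arrays numbered 3 (0.0931).

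**Figure D5:**
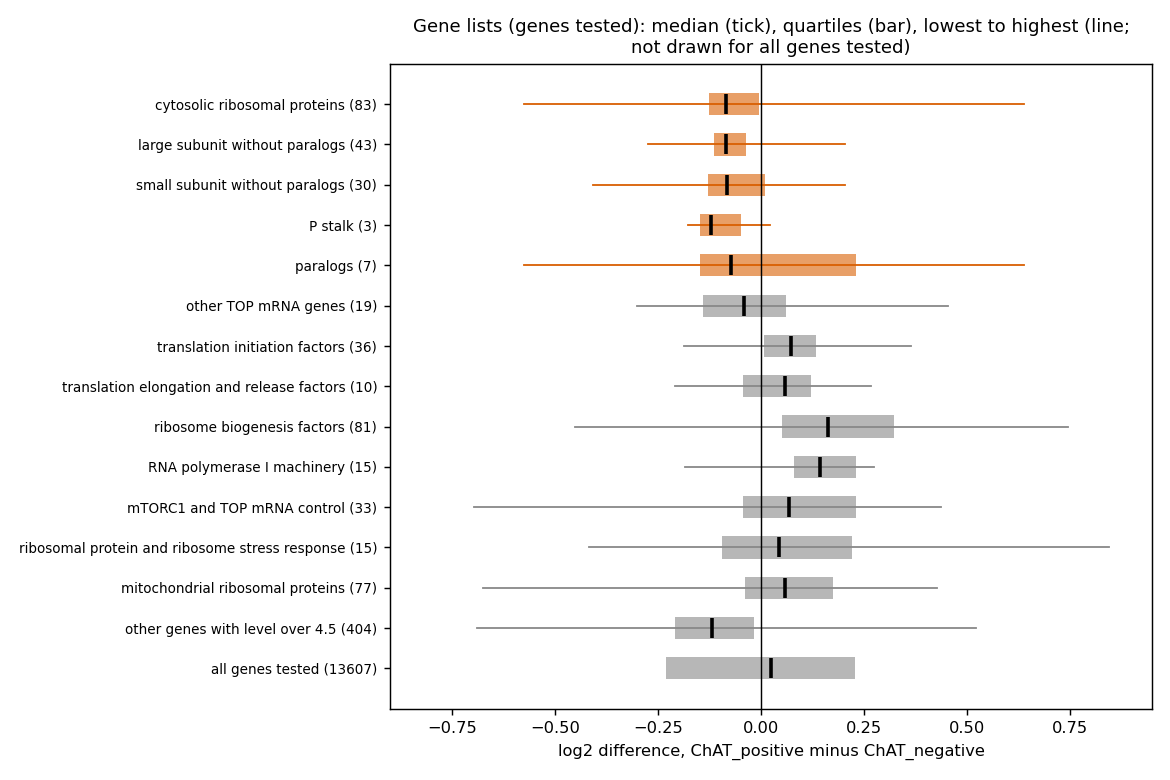
Log2 difference (ChAT_positive minus ChAT_negative, horizontal axis) over the genes of each list, with ticks for medians, bars for quartiles and lines from the lowest to the highest gene; the number of genes tested follows each name. The ribosomal protein sets, in orange, have medians between -0.12 and -0.07, and ribosome biogenesis factors have a median of 0.16.

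Marker genes of other cells differed between the groups, and their part in these values was not tested. Signal was summed over the tested genes of each list, in multiples of each array's 75th percentile. For 18 B cell genes the sum was 195 to 257 in ChAT_positive and 135 to 194 in ChAT_negative arrays, and 6 of the 18 were higher. For 19 NK cell genes it was 247 to 369 and 374 to 458, with 4 of the 19 lower in ChAT_positive cells. Basophil and mast cell genes summed to 0.891 to 3.79 and 9.12 to 43.3, with 5 of 7 lower, and erythroid genes to 15.2 to 16.8 and 23.4 to 33.7, with 3 of 7 lower. Platelet genes summed to 8.65 to 12.6 and 14.4 to 28.8, with 2 of 11 lower, and neutrophil genes to 37.6 to 70.2 and 57.9 to 102.0, with 3 of 12 lower. Dendritic cell genes summed to 41.8 to 55.8 and 37.6 to 52.0, with 2 of 8 lower, and plasma cell genes to 53.8 to 83.2 and 48.5 to 123.8, with 1 of 8 lower, while 0 of 18 T cell, 0 of 9 monocyte and macrophage and 0 of 15 proliferation genes passed. The ribosomal protein genes themselves summed to 2708 to 3824 in ChAT_positive and 2619 to 3920 in ChAT_negative arrays, ranges that overlap across most of their length.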

How the data were processed

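RNA of 4 ChAT_positive and 4 ChAT_negative pools was measured on one-colour Agilent arrays, from 100 ng of total RNA amplified by in vitro transcription, per the labels' protocols. The deposited scanner files hold linear spot intensity values, background-subtracted within each array by Agilent Feature Extraction 11.5.1.1, per the file headers. The deposited value table holds log2 values. Set against the scanner values, its columns equal log2 intensity minus a constant close to the array's 75th percentile, with no centring per gene and column medians of -0.72 to -0.63. It served as an alternative.

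Control spots and 1344 flagged spot values were left out (51 probe values with every spot flagged were kept), and spots of a probe were averaged. Probes were named by unversioned RefSeq accession in a GRCm38.p6 table: 26762 of 55681 had 1 symbol and 28919 none. No gene positions are given for array features, which were annotated on an earlier assembly per the file headers. Promoter sequences are from RefSeq. Values are log2 intensity minus the 75th percentile of all probes but controls on that array. A probe was kept (32086 were) if at least 4 of 8 arrays had it well above background, and the brightest probe stood for a gene. Groups were compared by two-sided tests in R 4.3.3 with limma 3.58.1 (lmFit, then eBayes; p-values of 13607 genes adjusted by Benjamini-Hochberg, called under 0.05), a procedure tested on simulated data. The simulated noise was independent between genes, without swings shared across an array or a slide effect, so the simulation does not cover those features of these data. Summaries used Python 3.11.15 with pandas 2.3.3. The number of arrays limits the precision.

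The members and lists were chosen with earlier results of these data known. Genes named are Chat; members called, the 5 highest and 5 lowest differences, the 5 brightest, paralogs with partners, stalk genes and Rps6; and per list up to 4 called genes or the 2 brightest. Members with other roles, unadjusted genes and single probes were named after their values were seen. The alternatives were other scalings, normexp background correction (offset 50), other filters, the mean of a gene's probes, another variance model, array weights, a replicate block, an adjusted p under 0.10, the deposited table, and arrays left out. Slide could not be a block. A gene that the rule takes is not reported here.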

Additional observations from a re-analysis of the deposited data

Results flagged for a closer look

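In 4 of 94 groups of 4 arrays examined, 1 array stood far from the other 3, and it was ChAT_negative replicate 3 each time; chance flags about 1 in 20 groups. Rps10 was at 4.92 there, with the other ChAT_negative arrays at 5.47 to 5.58. Rpl22 was at 4.29 against 4.83 to 4.93. Rpl10l was at -4.10 against -2.94 to -2.86. Mrpl33, a mitochondrial ribosomal protein gene, was at 4.43 against 4.82 to 4.90. On that array the 75th percentile used for scaling was the highest of the 8, at 11.61.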

How the results depend on the processing

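Members called stayed at 0 in 21 of 22 other settings. The exception was the replicate block, in which 1 member was lower (Rpl10l, -0.57, adjusted p = 0.0461) and all genes gave 1002 higher and 1340 lower; same-numbered arrays correlated at 0.539, 0.661, 0.519 and 0.032, so 3 of 4 numbers went together as a hint from the data, but the fourth pair was under the 0.1 asked of every pair, and the labels name no pairing. ChAT_positive replicate 4 correlated best with ChAT_negative replicate 3 (0.233). Chat kept its difference of 1.10 with an adjusted p of 0.0532 without the filter on dim probes, ran from 0.99 to 1.26 with single arrays left out, and was 1.00 (adjusted p = 0.118) without both arrays numbered 3, an alternative added after seeing the data. Whole-table counts differed over 1.5 times from 383 higher and 428 lower with median scaling (211 and 119), no scaling (30 and 120), scaling to the members' median (67 and 73), no filter on dim probes (98 and 125), array weights (577 and 639), without both arrays numbered 3 (21 and 35), and without most single arrays. Of 690 alternative values of the 30 named members, 676 moved by less than 1 SD between arrays, 13 by more (12 of these with median scaling) and 1 passed the threshold; 58 changed sign, in 20 members. Ribosome biogenesis factors called higher ran from 0 to 5 (the latter with the block) around 2.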
